A study of Mus musculus with 8 samples.

Results

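The genes described here are 40 genes of the endoplasmic reticulum (ER), the compartment in which secreted and membrane proteins fold. They comprise 9 sensors and regulators of the ER stress response, 16 chaperones and folding enzymes, 10 genes of ER-associated degradation and 5 genes of protein translocation. They were found by their current or older symbol in the annotation of the array, and all 40 were present among 17097 genes with a probe set. Where a gene had several probe sets, the one with the highest mean over the 8 arrays stood for it. The rule uses gene names and no measured difference.

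The series compared regulatory T cells (Treg cells) of 2 genotypes by expression array. RaptorKO cells came from CD4(cre)Raptor(fl/fl) mice, in which Cre recombinase expressed under Cd4 deletes the floxed gene for Raptor (Rptor), the subunit that defines the kinase complex mTORC1. The controls were cells of WT mice. All mice were C57Bl/6J, and all cells were CD4+CD25+ cells sorted from spleen and peripheral lymph nodes and lysed without treatment. There were 4 arrays of RaptorKO cells and 4 of WT cells. Cd4 is expressed from the CD4+CD8+ thymocyte stage on, so Cre also acts in conventional CD4 and CD8 T cells of these mice, and CD25 is not exclusive to Treg cells. The labels do not say whether the arrays of a genotype came from separate mice. The p-values therefore measure the spread between these arrays, which may be partly technical.

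Proteins enter the ER through the Sec61 channel, are folded by chaperones such as BiP and by disulfide isomerases, and are sent to the proteasome if they fail to fold. Misfolded proteins in the ER lumen activate IRE1, PERK and ATF6, the sensors of the unfolded protein response. IRE1 splices the mRNA of the transcription factor XBP1, PERK phosphorylates eIF2α and thereby raises ATF4 and CHOP, and ATF6 is cleaved to a transcription factor. Their target genes encode many of the chaperones and degradation factors listed here. An expression array measures transcript levels, so it shows neither phosphorylation of PERK nor cleavage of ATF6, and the probe sets used here were not examined for the spliced form of Xbp1.

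XBP1 and ATF6 act through short promoter elements, which are shown because they link the sensors to the genes measured here. The ER stress element reads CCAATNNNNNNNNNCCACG where N is any base, and the second element, ERSE-II, is ATTGG and CCACG with 1 base of any kind between them. Both were searched on both strands from 250 bases before to 50 bases after the annotated start, in RefSeq promoters of GRCm38.p6. Of the 40 genes, 34 had a promoter in that table. The ER stress element was found in 9 of these 34 promoters (26.5%), against 37 of 27025 promoters of all genes (0.137%). It lay in the promoters of Calr, Canx, Creld2, Dnajc3, Ero1b, Hsp90b1, Hspa5, Pdia6 and Syvn1. ERSE-II was found in 2 of 34 (5.88%), Dnajb11 and Herpud1, against 12 of 27025 (0.0444%). The 5 stretches below belong to the best-known target, Hspa5, to the chaperone genes with the most negative changes, Dnajb11, Calr and Pdia6, and to the other gene with ERSE-II. They run 5′ to 3′ on the gene's strand, and capitals mark the element, which in Calr lies on the opposite strand and so reads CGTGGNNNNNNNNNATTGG.
Hspa5, chr2:34772005-34772063, plus strand: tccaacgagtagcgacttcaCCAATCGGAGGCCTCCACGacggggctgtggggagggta
Calr, chr8:84847055-84847113, minus strand: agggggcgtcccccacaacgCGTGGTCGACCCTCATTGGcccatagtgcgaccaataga
Pdia6, chr12:17266471-17266529, plus strand: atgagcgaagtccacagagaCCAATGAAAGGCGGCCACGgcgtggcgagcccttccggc
Dnajb11, chr16:22857833-22857862, plus strand: tgtgatgtccccggcggcgATTGGCCCACG
Herpud1, chr8:94386357-94386407, plus strand: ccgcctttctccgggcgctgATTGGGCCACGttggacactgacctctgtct
The element began 65 bases before the annotated start in Hspa5, 162 bases before it in Calr, 98 in Pdia6 and 52 in Herpud1, whereas that of Dnajb11 lay past the start. Another element, UPRE, searched as TGACGTGG, was in none of the 34 promoters and in 193 of 27025 (0.714%). A match describes the letters of this window and does not show binding, and a missing match says only that these letters are not in it.

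Rptor, the targeted gene, read 6.63, 6.47, 6.50 and 6.95 on RaptorKO arrays 1 to 4, against 6.83, 6.85, 7.03 and 6.75 on WT arrays 1 to 4 (log2 intensity). It differed by -0.22 ± 0.12 (log2, SE, limma adjusted p = 0.491), and the groups overlapped because RaptorKO 4 lay above WT 1, 2 and 4. The mean of its 2 probe sets differed by -0.32 (limma adjusted p = 0.119). The sources used here do not place its probe set relative to the floxed exon, so it does not check the labels. The Treg markers were high in both genotypes, with Foxp3 at 10.96 to 11.04 on RaptorKO arrays and 10.79 to 10.96 on WT arrays. Of the 8 markers, 4 had a higher and 4 a lower mean in RaptorKO cells, and 0 were called. The genotypes did not overlap in 3 of the 8, against 8.82% of all tested genes. These were Ctla4 (-0.32, limma adjusted p = 0.169), Cd4 (-0.22, adjusted p = 0.362) and Ikzf2 (0.21, adjusted p = 0.342). Replicates 1 and 2 of both genotypes had Xist at 10.88 to 11.18 and replicates 3 and 4 at 5.04 to 5.62. The Y-linked gene Eif2s3y was the other way round, at 2.92 to 3.36 and at 7.70 to 8.19. Replicates 1 and 2 thus read as female and replicates 3 and 4 as male in each genotype. This sex is taken from the transcripts and not from the labels. Replicates 1 and 2 of a genotype therefore came from other mice than replicates 3 and 4.

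None of the 40 ER genes passed the test between RaptorKO and WT cells. All 40 lay above the filter on dim probe sets, the 40th percentile of the array, on all 8 arrays. With limma and Benjamini-Hochberg adjustment over 11413 tested genes, 224 genes (1.96%) were called at an adjusted p under 0.05, with 94 higher (0.824%) and 130 lower (1.14%) in RaptorKO cells. The lowest adjusted p among the ER genes was 0.0802, for Edem1. At an unadjusted p under 0.05 stood 5 of the 40, against 13.0% of all tested genes, which is a share near the background. In these bulk samples fewer cells of a type and less RNA per cell cannot be told apart.

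The changes of the ER genes were small, as were most changes over the array. They lay between -0.47 and 0.33 (log2, RaptorKO minus WT), and 31 of 40 were smaller than 0.2 in either direction. Of all 11413 tested genes, 2761 lay between -0.1 and 0 and 2580 between 0 and 0.1. A further 1649 lay between -0.2 and -0.1 and 1556 between 0.1 and 0.2, so the small size is not particular to the ER genes. The median of the ER genes was -0.08, a fold of 0.947, against -0.01 for all tested genes. In 30 of the 40 genes (75%) the mean was lower in RaptorKO cells, against 52.4% of all tested genes. These genes share the same 8 arrays and are not independent of each other. Between the genotypes 4 genes did not overlap, 3 of them lower in RaptorKO cells (Edem1, Dnajb11 and Calr) and 1 higher (Ddit3). Among all tested genes 8.82% did not overlap, 5.09% lower and 3.73% higher. The 95% limma intervals had half-widths of 0.21 to 0.40, and in 35 of 40 genes the whole interval lay within a 1.5-fold change either way. The number of arrays limits this precision. The smallest called change on the whole array was 0.41 in either direction.

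**Figure D1:**
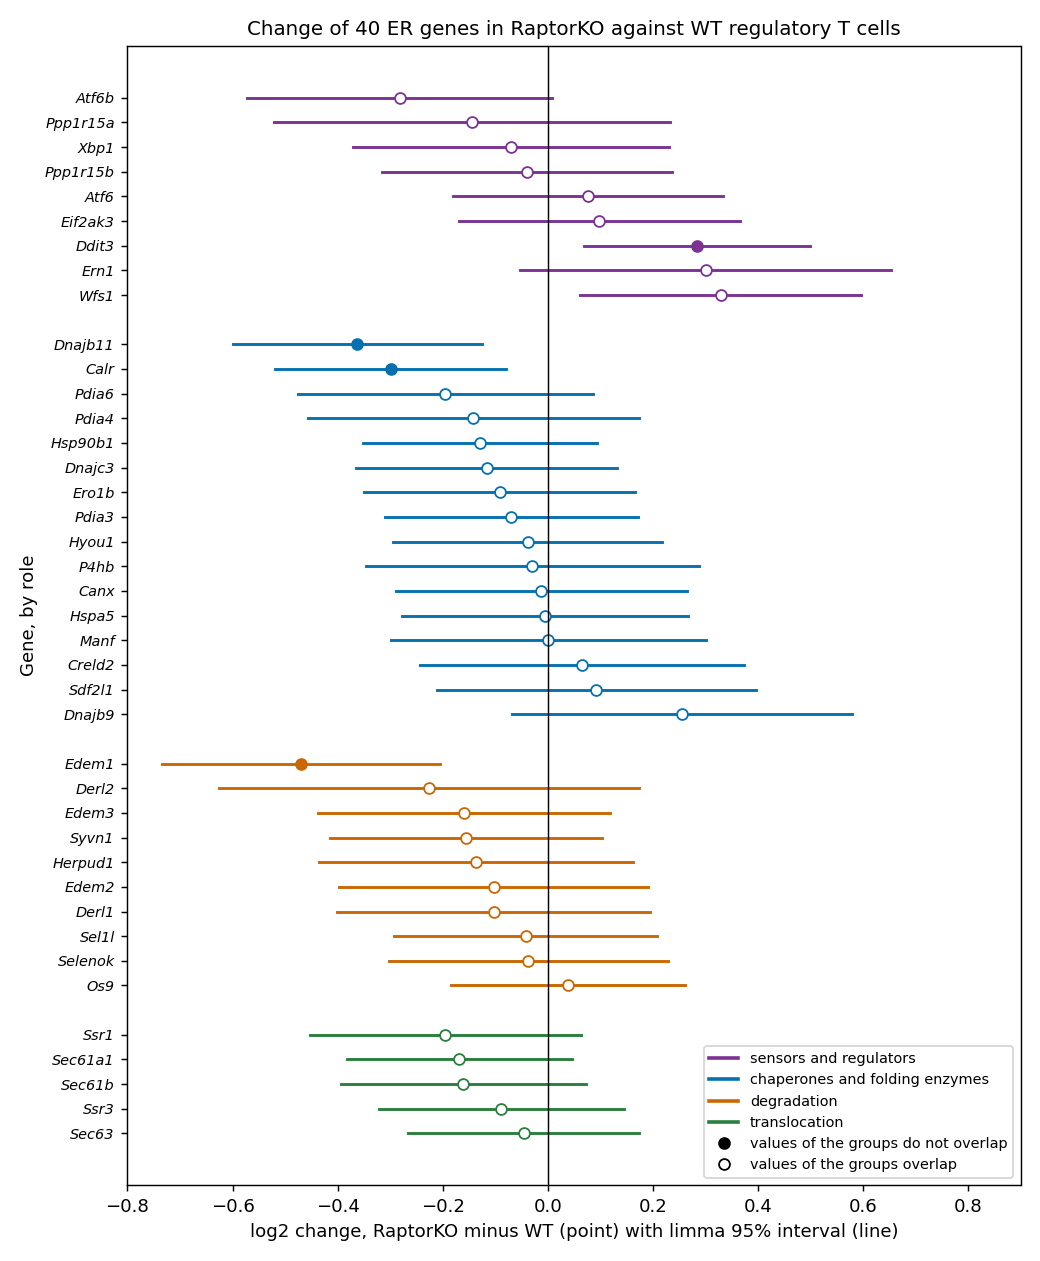
Log2 change of each of the 40 ER genes (RaptorKO minus WT, horizontal axis) by role, with the 95% limma interval as a line, from 4 arrays each. Filled points are the 4 genes whose RaptorKO and WT values do not overlap, and 35 of the 40 intervals include 0.

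No gene of any role was called, and the signs by role are given as counts. Of the 9 sensors and regulators, 5 were positive and 4 negative, with a median of 0.08. Of the 16 chaperones and folding enzymes, 4 were positive and 12 negative, with a median of -0.05. Of the 10 degradation genes, 1 was positive and 9 negative, with a median of -0.12. All 5 translocation genes were negative, with a median of -0.16. Differences between the roles were not tested. The signs are those of 1 probe set per gene. In Ern1, Atf6, Dnajc3, Sel1l, Derl1, Derl2, Os9 and Sec63 the tested probe sets lay on both sides of 0. The counts varied with the replicate set. Of the chaperones, 6 of 16 were negative in replicates 1 and 2 (median 0.06) and 14 of 16 in replicates 3 and 4 (median -0.17). Of the degradation genes, 6 of 10 were negative in replicates 1 and 2 (median -0.01) and 8 of 10 in replicates 3 and 4 (median -0.28). Of the translocation genes, 3 of 5 were negative in replicates 1 and 2 (median -0.01) and 5 of 5 in replicates 3 and 4 (median -0.19). Of the sensors and regulators, 3 of 9 were negative in replicates 1 and 2 (median 0.08) and 4 of 9 in replicates 3 and 4 (median 0.04).

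Among the sensors, the value of the IRE1 gene depended on the probe set. Ern1, which encodes IRE1α, read 6.60, 6.88, 6.58 and 6.77 on RaptorKO arrays 1 to 4, against 5.96, 6.38, 6.45 and 6.83 on WT arrays 1 to 4. The groups overlapped, with WT 1 lowest and WT 4 the second highest of all 8. The difference was 0.30 ± 0.16 (SE, adjusted p = 0.482), while the 2 other tested probe sets of Ern1 differed by -0.00 and 0.03. Eif2ak3, which encodes PERK, differed by 0.10 (adjusted p = 0.834) with the probe set used here. Its second tested probe set read 5.50, 5.68, 5.26 and 5.59 on RaptorKO arrays and 4.85, 5.09, 5.08 and 5.12 on WT arrays, a difference of 0.47 with no overlap. That probe set did not pass when every probe set was tested separately (limma adjusted p = 0.0772).

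In the ATF6 branch, with its 2 paralogues, the sign of Atf6 depended on the probe set. Atf6 differed by 0.08 (adjusted p = 0.869) with the probe set used here and by -0.09 with its second one. Atf6b, which encodes the related factor ATF6β, read 7.04, 7.24, 6.58 and 6.87 on RaptorKO arrays, against 7.21, 7.15, 7.22 and 7.27 on WT arrays. It differed by -0.28 ± 0.13 (SE, adjusted p = 0.400), with RaptorKO 2 among the WT arrays and RaptorKO 3 the lowest. Wfs1, an ER membrane protein known to restrain ATF6, read 5.42, 5.39, 5.24 and 5.47 on RaptorKO arrays, against 4.97, 5.07, 4.82 and 5.35 on WT arrays. Its difference was the most positive of the 40, 0.33 ± 0.12 (SE, adjusted p = 0.251), and WT 4 lay above RaptorKO 3. The only probe set of Wfs1 was dim, at 4.82 to 5.47 against array medians of 5.21 to 5.29, which limits what this difference shows.

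The transcription factors of the response differed less, apart from CHOP. Ddit3, which encodes the stress-induced factor CHOP, read 7.90, 7.90, 8.03 and 7.73 on RaptorKO arrays, against 7.56, 7.70, 7.60 and 7.58 on WT arrays. All 4 RaptorKO arrays lay above all 4 WT arrays, with RaptorKO 4 and WT 2 close to each other. The means were 7.89 ± 0.12 in RaptorKO cells and 7.61 ± 0.06 in WT cells (SD, n = 4 each), a 1.22-fold higher value that did not pass (adjusted p = 0.204). Xbp1, the target of IRE1, read 8.41, 8.19, 7.83 and 8.08 on RaptorKO arrays and 8.43, 8.02, 8.10 and 8.25 on WT arrays. The groups overlapped almost entirely, the difference was -0.07 (adjusted p = 0.905), and its 4 probe sets ranged from -0.08 to -0.00. The subunits that direct a phosphatase to eIF2α were Ppp1r15a, the stress-inducible one, with a difference of -0.14 (adjusted p = 0.821), and Ppp1r15b, the constitutive one, with -0.04 (adjusted p = 0.946).

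BiP, the central chaperone of the compartment, had nearly equal means in the genotypes with the probe set used here. Its gene Hspa5 read 10.01, 10.14, 10.27 and 10.19 on RaptorKO arrays, against 10.25, 9.81, 10.30 and 10.25 on WT arrays. The difference was -0.01 with a 95% interval of -0.28 to 0.27 (adjusted p = 0.993), and WT 2 lay apart below the other WT arrays. The second probe set of Hspa5 differed by -0.12. Hsp90b1, which encodes GRP94, the ER member of the HSP90 family, read 10.06, 9.99, 9.75 and 9.76 on RaptorKO arrays, against 10.06, 10.01, 10.01 and 10.00 on WT arrays. RaptorKO 3 and 4 were the low arrays, RaptorKO 1 was level with WT 1, and the difference was -0.13 ± 0.10 (SE, adjusted p = 0.692). Hyou1, a large co-chaperone of BiP, differed by -0.04 (adjusted p = 0.945).

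**Figure D2:**
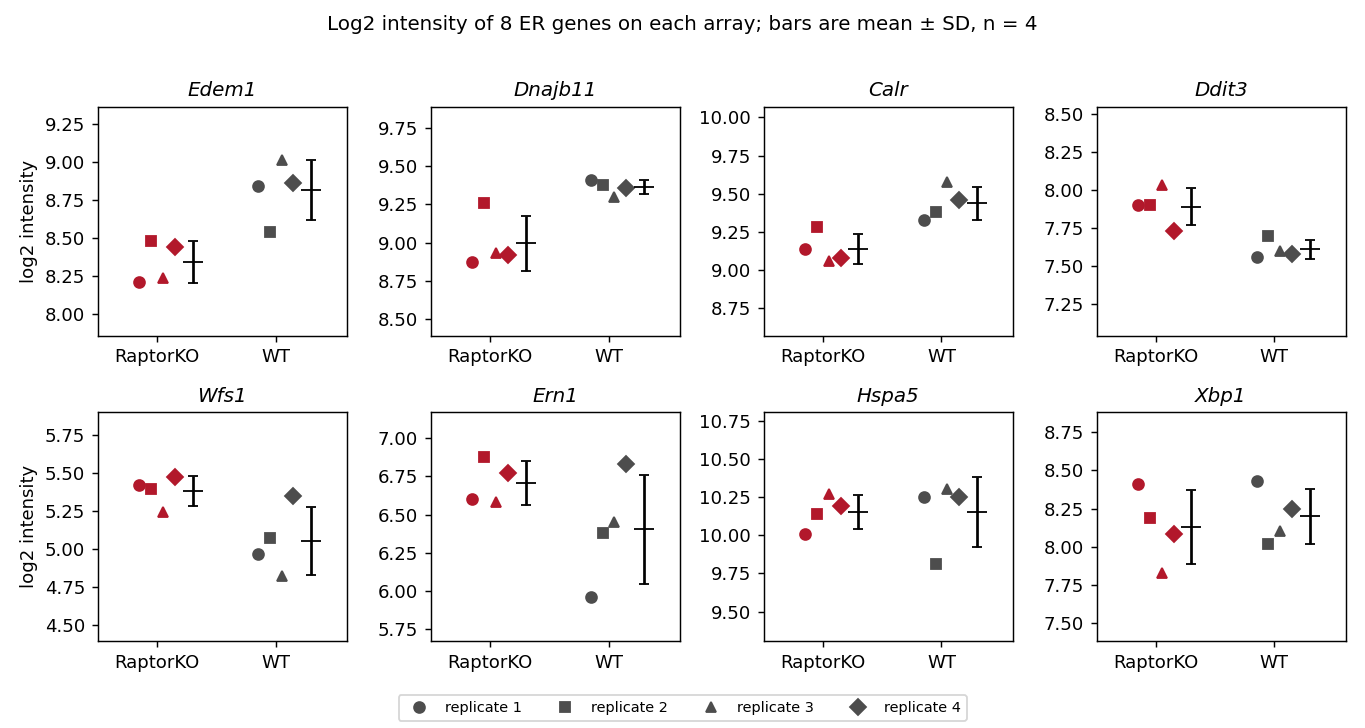
Log2 intensity of 8 ER genes on each of the 4 RaptorKO and 4 WT arrays, with the mean ± SD (n = 4) beside each group and a marker shape for each replicate number. The RaptorKO points of Edem1, Dnajb11 and Calr all lie below the WT points and those of Ddit3 above them, whereas the groups overlap in Wfs1, Ern1, Hspa5 and Xbp1.

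Of the co-chaperones that bring substrates to BiP, Dnajb11 and Dnajb9 differed in opposite directions. Dnajb11, also called ERdj3, whose promoter window holds the ERSE-II shown above, read 8.87, 9.26, 8.93 and 8.92 on RaptorKO arrays, against 9.41, 9.38, 9.30 and 9.36 on WT arrays. All RaptorKO arrays lay below all WT arrays, with RaptorKO 2 close to them. The means were 9.0 ± 0.18 in RaptorKO cells and 9.36 ± 0.05 in WT cells (SD, n = 4 each), a difference of -0.36 ± 0.11 (SE, adjusted p = 0.135). Without RaptorKO 2 it passed, at -0.45 (limma adjusted p = 0.0338). Dnajb9, also called ERdj4, which holds IRE1 in its inactive form, read 8.38, 8.32, 8.45 and 8.79 on RaptorKO arrays, against 8.25, 7.87, 8.51 and 8.29 on WT arrays. It differed by 0.26 ± 0.15 (SE, adjusted p = 0.530), with RaptorKO 4 the highest and WT 2 the lowest array. Dnajc3, a further J-domain partner of BiP, differed by -0.12 (adjusted p = 0.769), and Sdf2l1, a cofactor in J-protein complexes, by 0.09 (adjusted p = 0.867).

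Of the lectin chaperones that hold glycoproteins, Calr had a larger difference than Canx, and the contrast between these genes was not tested. Calr, which encodes the soluble lectin calreticulin, read 9.14, 9.28, 9.06 and 9.08 on RaptorKO arrays, against 9.33, 9.38, 9.58 and 9.46 on WT arrays. The RaptorKO arrays lay below all WT arrays, with RaptorKO 2 and WT 1 close to each other. The means were 9.14 ± 0.10 in RaptorKO cells and 9.44 ± 0.11 in WT cells (SD, n = 4 each), a difference of -0.30 ± 0.10 (SE, adjusted p = 0.189), and its second probe set differed by -0.37. Canx, which encodes the membrane-bound lectin calnexin, differed by -0.01, with a 95% interval of -0.29 to 0.27 (adjusted p = 0.984). Both promoters hold an ER stress element.

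The 5 genes of disulfide formation among the 40 (Pdia6, Pdia4, Pdia3, P4hb and Ero1b) differed by -0.20 to -0.03 over the 4 arrays of each genotype. Pdia6 read 7.03, 7.46, 7.25 and 7.45 on RaptorKO arrays, against 7.67, 7.29, 7.61 and 7.39 on WT arrays. It differed by -0.20 ± 0.13 (SE, adjusted p = 0.604), with the groups overlapping through WT 2 and WT 4. Pdia4 differed by -0.14 (adjusted p = 0.782), Pdia3, the partner of calnexin and calreticulin, by -0.07 (adjusted p = 0.873), and P4hb, the classical disulfide isomerase, by -0.03 (adjusted p = 0.964). The only probe set of Pdia3 was dim, at 5.58 to 6.01 against array medians of 5.21 to 5.29, which limits what its difference shows. Ero1b, an oxidase that recharges the isomerases, differed by -0.09 (adjusted p = 0.840). The secreted stress protein Manf differed by 0.00 (adjusted p = 0.999) and Creld2, another stress-induced secreted protein, by 0.07 (adjusted p = 0.919). Over the 9 genes with an ER stress element the median change was -0.12, with 8 negative, and over the other 25 genes with a promoter it was -0.07, with 18 negative. The difference between these groups of genes was not tested.

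In ER-associated degradation, Edem1 had the largest difference of the 40 genes. Edem1, a lectin-like mannosidase homologue that routes misfolded glycoproteins to degradation, read 8.21, 8.48, 8.24 and 8.44 on RaptorKO arrays, against 8.84, 8.54, 9.01 and 8.86 on WT arrays. All RaptorKO arrays lay below all WT arrays, with only WT 2 close to them. The means were 8.34 ± 0.14 in RaptorKO cells and 8.81 ± 0.20 in WT cells (SD, n = 4 each). The difference was -0.47 ± 0.12 (SE) with a 95% interval of -0.73 to -0.20, a 1.39-fold lower value that did not pass (adjusted p = 0.0802). Differences at least as large, in either direction, were found in 470 of the 11413 tested genes (4.12%). Its second probe set differed by -0.28. The call turned with settings, as Edem1 passed with an intensity-dependent variance (adjusted p = 0.0392), with array weights (adjusted p = 0.029) and without WT 2 (adjusted p = 0.0435). Its relatives Edem2 and Edem3 differed by -0.10 (adjusted p = 0.840) and -0.16 (adjusted p = 0.697).

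The remaining degradation genes had small differences with wide overlap. Syvn1, the ubiquitin ligase HRD1, read 6.88, 7.14, 7.31 and 7.14 on RaptorKO arrays, against 7.38, 7.25, 7.07 and 7.38 on WT arrays. RaptorKO 1 was the low array among these, and RaptorKO 3 lay above 2 WT arrays. It differed by -0.15 ± 0.12 (SE, adjusted p = 0.677), and by -0.36 in its second probe set. Sel1l, the partner that stabilises HRD1, differed by -0.04 (adjusted p = 0.935), and Os9, the lectin that hands glycoproteins to this complex, by 0.04 (adjusted p = 0.932). The second probe set of Os9 differed by -0.27. The derlins, membrane proteins of the exit channel, differed by -0.10 for Derl1 (adjusted p = 0.843) and -0.23 for Derl2 (adjusted p = 0.699). Their other tested probe sets differed by 0.03 and 0.09 for Derl1 and by 0.19 for Derl2. Herpud1, an organiser of the HRD1 complex and the second gene with an ERSE-II, differed by -0.14 (adjusted p = 0.778). Selenok, a selenoprotein that binds the derlins, differed by -0.04 (adjusted p = 0.946).

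In translocation, the 5 genes differed by -0.20 to -0.05. Sec61a1, the pore-forming subunit of the channel, read 10.57, 10.70, 10.46 and 10.60 on RaptorKO arrays, against 10.78, 10.85, 10.63 and 10.73 on WT arrays. Every RaptorKO array except RaptorKO 2 lay below all WT arrays, and RaptorKO 2 lay above only WT 3. The difference was -0.17 ± 0.10 (SE, adjusted p = 0.535), and its 4 probe sets ranged from -0.25 to -0.12.

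With the probe sets used here, the associated subunits showed the same sign with more overlap. Sec61b, the small β subunit, read 9.59, 9.66, 9.29 and 9.46 on RaptorKO arrays and 9.58, 9.64, 9.72 and 9.71 on WT arrays, where only RaptorKO 3 and 4 were low. It differed by -0.16 ± 0.11 (SE, adjusted p = 0.607). Ssr1, a subunit of the translocon-associated complex TRAP, read 8.12, 8.61, 8.36 and 8.42 on RaptorKO arrays, against 8.68, 8.45, 8.65 and 8.51 on WT arrays. Its difference was -0.20 ± 0.12 (SE, adjusted p = 0.553), and RaptorKO 2 lay among the WT arrays. Ssr3, another TRAP subunit, differed by -0.09 (adjusted p = 0.827), and Sec63, which couples BiP to the channel, by -0.05 (adjusted p = 0.919). The sign of Sec63 depended on the probe set, as its other tested ones differed by -0.04, 0.20 and 0.18.

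The 40 genes had 85 probe sets, of which 80 were bright enough to be tested. Of the 23 genes with more than 1 tested probe set, 15 had all of them on the same side of 0, and 16 genes, Dnajb11 and Ddit3 among them, had a single probe set. Testing every probe set separately called none of the chosen probe sets either.

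Some arrays stood apart within their group. WT 2 was the lowest WT array in 22 of the 40 genes and in 10 of the 16 chaperones. RaptorKO 2 was the highest RaptorKO array in 21 of the 40 and in 11 of the 16 chaperones. As the median deviation of the 40 genes from their own means, RaptorKO arrays 1 to 4 stood at -0.02, 0.07, -0.11 and -0.08, against 0.12, -0.07, 0.05 and 0.07 on WT arrays 1 to 4. The groups overlapped, with RaptorKO 2 above WT 3 and WT 4 and with WT 2 at the level of RaptorKO 4. The same medians over all tested genes were -0.00, 0.05, -0.05 and -0.01 on RaptorKO arrays, against 0.02, -0.02, 0.02 and 0.01 on WT arrays, so each array deviated to the same side as in the ER genes, and by less. The median change of -0.08 was more negative without WT 2, at -0.13, and without RaptorKO 2, at -0.11. It was closest to 0 without WT 4, at -0.05. The number of negative genes was lowest without WT 1, at 24 of 40, and highest without WT 2, at 32 of 40.

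**Figure D3:**
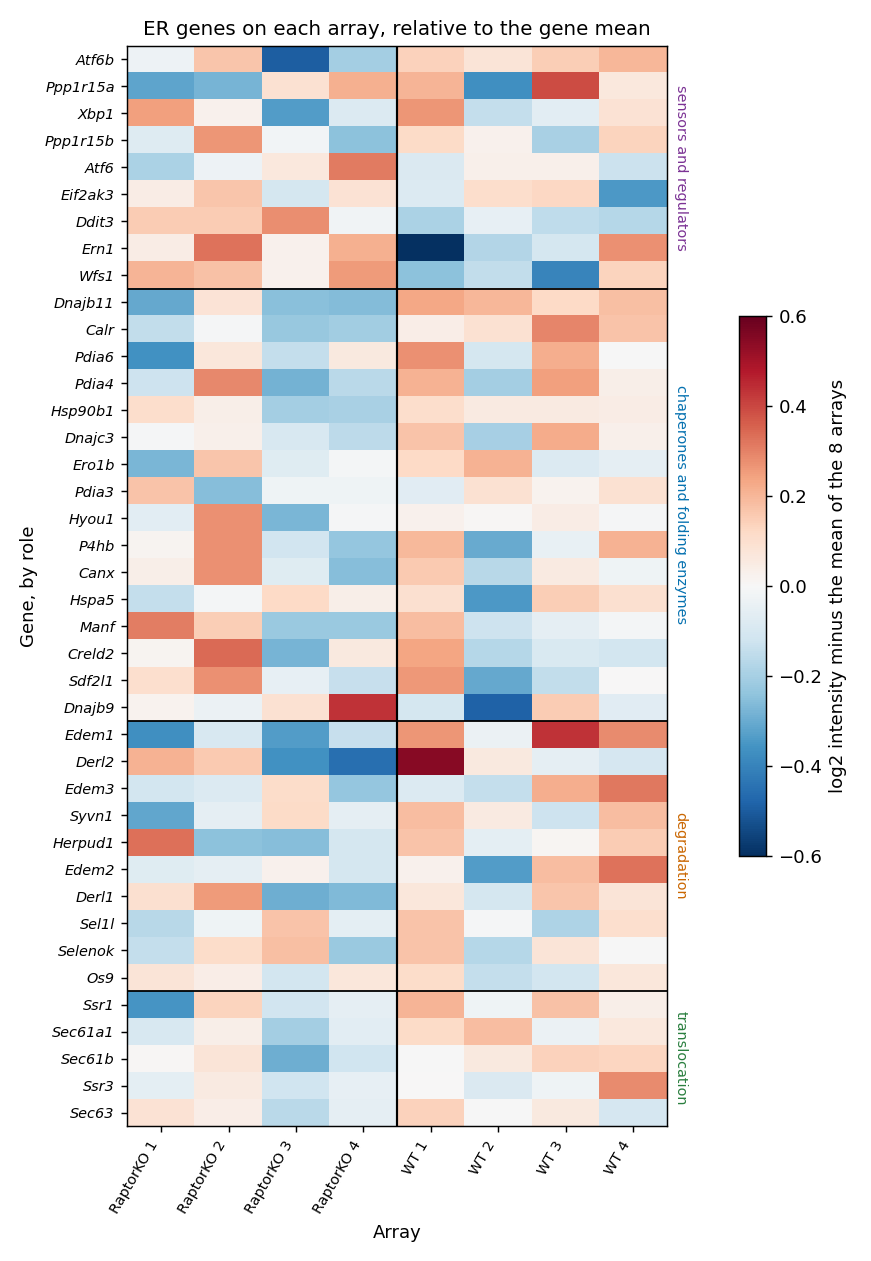
Log2 intensity of each of the 40 ER genes on each array minus the gene's mean over the 8 arrays, with RaptorKO arrays on the left, WT arrays on the right and genes grouped by role. The colour scale runs from -0.6 (blue) to 0.6 (red), and RaptorKO 2 is the highest RaptorKO array in 11 of the 16 chaperones and WT 2 the lowest WT array in 10.

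The replicate sets, which differ in the sex-linked transcripts given above, gave different medians. The part of sex in this was not tested. Within replicates 1 and 2, the median change of the 40 genes was 0.02, equal to that of all tested genes, and 18 of 40 were negative, against 46.4% of all tested genes. None of them was called within this set alone, against 0.0789% of all tested genes. Within replicates 3 and 4, the median was -0.16, against -0.04 for all tested genes, and 31 of 40 were negative, against 56.7% of all tested genes. None was called within this set either, against 0.745% of all tested genes. No gene of the array passed the limma test of the difference between the sets (0% of 11413 called, and 11.4% at an unadjusted interaction p under 0.05). Of the 40 genes, 2 stood at an unadjusted interaction p under 0.05. Derl1 differed by 0.20 in replicates 1 and 2 and by -0.40 in replicates 3 and 4 (interaction adjusted p = 0.346). Atf6b differed by -0.04 in replicates 1 and 2 and by -0.52 in replicates 3 and 4 (interaction adjusted p = 0.422). Edem1 differed by -0.34 in replicates 1 and 2 and by -0.59 in replicates 3 and 4, and Dnajb11 by -0.32 and by -0.40 in those sets. Ddit3 differed by 0.28 in replicates 1 and 2 and by 0.29 in replicates 3 and 4.

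Markers of other cells of spleen and lymph nodes were summed as linear intensities. A CD4+CD25+ gate would remove most B cells, plasma cells, CD8 T cells and NK cells. The list for plasma cells, which are rich in ER, summed to 464.5 to 495.0 on RaptorKO arrays and 525.7 to 610.1 on WT arrays, without overlap and in the direction of most ER genes. Of its 8 genes with a probe set, 1 had a higher mean in RaptorKO cells, Jchain, at 5.37 to 6.09 on RaptorKO arrays and 3.96 to 5.78 on WT arrays. The plasma cell receptor Tnfrsf17 was below the filter on every array and Ighm exceeded it on 3. The list shares Derl3, Fkbp11 and Txndc5 with the wider ER lists described below, with differences of -0.09, -0.17 and -0.20. Its direction is therefore not independent of ER genes. The list also holds Irf4 and Prdm1, which Treg cells express, with differences of -0.39 (adjusted p = 0.133) and -0.36 (adjusted p = 0.350). Without these 2 genes, left out after their values were seen, the other 6 summed to 235.3 to 262.8 on RaptorKO arrays and 227.4 to 272.9 on WT arrays, so the sums overlapped. The myeloid list was higher in RaptorKO cells by mean in 15 of 16 genes, with sums of 916.3 to 1597.0 on RaptorKO arrays and 630.2 to 1185.2 on WT arrays, and 3 of its genes were below the filter on every array. The plasmacytoid dendritic cell list summed to 615.2 to 797.5 on RaptorKO arrays and 561.5 to 654.9 on WT arrays. Of its 4 genes with a probe set, Ccr9, a homing receptor that T cells also express, rose by 0.74 (log2, limma adjusted p = 0.0115). Tcf4 differed by 0.60 without overlap (adjusted p = 0.117), and Irf8 and Pacsin1 differed by -0.06 and -0.10. B cell markers summed to 385.8 to 578.7 on RaptorKO arrays and 287.1 to 632.8 on WT arrays. CD8 T and NK cell markers summed to 775.5 to 1094.9 on RaptorKO arrays and 634.4 to 1265.7 on WT arrays. Among them Cd8a differed by -1.03 (adjusted p = 0.341), with its highest value on WT 2, Cd8b1 by -0.77 (adjusted p = 0.103), and Nkg7 by 0.87 without overlap (adjusted p = 0.106). Conventional CD4 markers summed to 2135.5 to 2572.8 on RaptorKO arrays and 2324.3 to 2721.3 on WT arrays. The myeloid, dendritic, B cell, CD8 and NK, and conventional CD4 sums overlapped between the genotypes. The part of these cells in the values of the ER genes was not tested.

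A wider set of 104 other genes of the same pathways was examined beside the 40. Of these, 93 had a probe set and 88 were tested, 1 rose and 2 fell, against the 1.96% called over the whole array, and the median change was -0.04. Both that fell were among 15 tested stress response regulators, and a link of their fall to ER stress was not tested. Map3k5, the kinase ASK1, which acts downstream of IRE1, read 6.93, 6.80, 6.90 and 7.28 on RaptorKO arrays, against 7.70, 7.73, 7.68 and 7.92 on WT arrays. It fell by 0.78 ± 0.12 on the log2 scale (SE, limma adjusted p = 0.00652), with all RaptorKO arrays below all WT arrays. The second probe set of Map3k5 differed by -0.62 and did not pass when tested separately (limma adjusted p = 0.0565). Bcl2l11, the death-promoting protein BIM, which CHOP can induce, read 8.35, 8.49, 8.14 and 8.01 on RaptorKO arrays, against 9.31, 9.16, 8.88 and 8.93 on WT arrays. It fell by 0.83 ± 0.14 on the log2 scale (SE, limma adjusted p = 0.00945) without overlap, and its 5 probe sets ranged from -0.97 to -0.59. Tested separately, these probe sets had limma adjusted p-values of 0.012, 0.0202, 0.0909, 0.104 and 0.362, so not all passed. With the 2 arrays per genotype of a replicate set, Map3k5 was not called in replicates 1 and 2 (adjusted p = 0.134) or in replicates 3 and 4 (adjusted p = 0.109), and Bcl2l11 was not called in replicates 1 and 2 (adjusted p = 0.139). Atf4, the factor below PERK, differed by -0.04.

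The single gene that rose belonged to translocation, where 26 were tested. Sec62, which helps small proteins through the channel, read 7.50, 7.78, 7.46 and 7.33 on RaptorKO arrays, against 6.72, 6.64, 5.99 and 7.01 on WT arrays. All RaptorKO arrays lay above all WT arrays, and the rise was 0.93 ± 0.19 (log2, SE, limma adjusted p = 0.0284). Its 2 other tested probe sets differed by 0.02 and 0.30, the mean of its probe sets did not pass (0.40, adjusted p = 0.132), and the call was lost without RaptorKO 1, 2 or 3 or without WT 1 or 2, at adjusted p-values of 0.0561 to 0.0677. No gene was called among 25 further folding genes and 22 further degradation genes. The smallest p-values there belonged to Qsox1, a sulfhydryl oxidase (-0.29, adjusted p = 0.303), Txndc11 (-0.23, adjusted p = 0.377), Ube2j1, the ubiquitin-conjugating enzyme of the ER membrane (-0.37, adjusted p = 0.154), and Selenos, a selenoprotein that binds derlins (-0.23, adjusted p = 0.355).

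**Figure D4:**
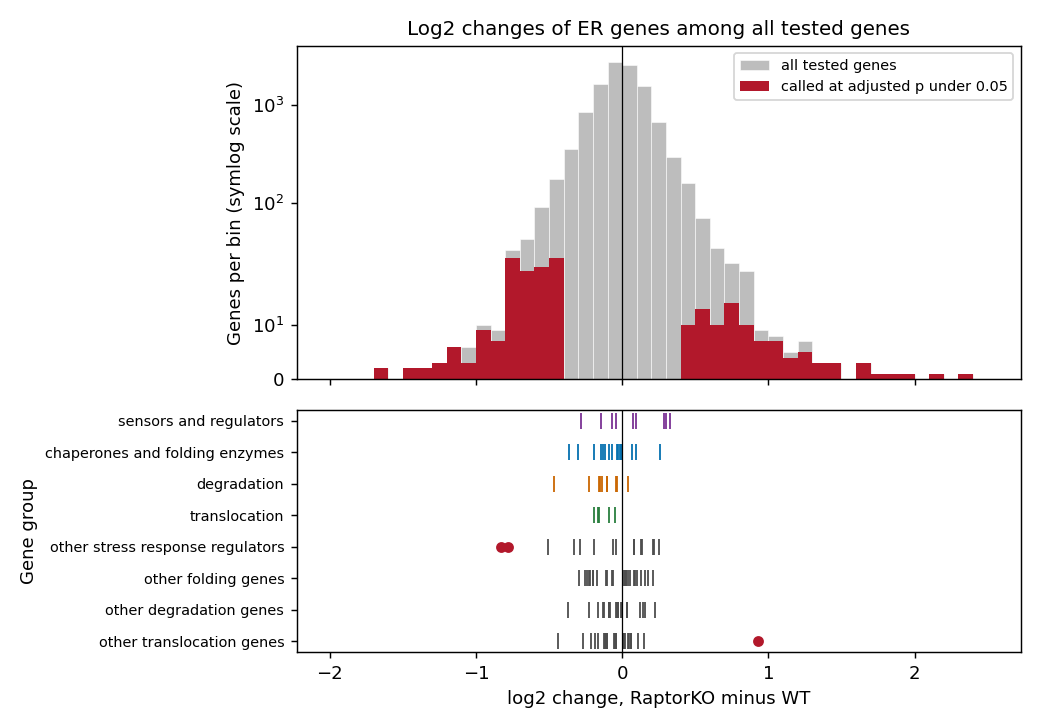
Log2 changes (RaptorKO minus WT) of all 11413 tested genes as a histogram on a symlog count axis, with the 224 called genes in red, above the changes of the ER genes by role and of the 4 wider ER lists. Each tick is a gene and each red point a called gene: none of the 40, and Bcl2l11, Map3k5 and Sec62 in the wider lists.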

How the data were processed

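RNA of sorted Treg cells was amplified and hybridised to Affymetrix HT MG-430 PM arrays, 4 of RaptorKO and 4 of WT cells. The authors deposited log2 intensities of 45141 probe sets, which the submitters' processing notes name as RMA values; the sources used here give no version. Array medians were 5.21 to 5.29. Probe sets were named from the platform annotation and updated by Entrez identifier. Of them 28898 had 1 gene, 551 several, 15692 none and 104 were controls. Probe sets with several genes were not used.

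For each gene the probe set with the highest mean was kept and entered the test if 4 or more arrays had it above their 40th percentile. RaptorKO was set against WT with limma 3.58.1 (lmFit, eBayes) in R 4.3.3, with Benjamini-Hochberg adjustment over 11413 genes. Scripts were tested on simulated data. The 40 genes, the wider lists, the markers and the replicate sets were chosen with earlier results of these data known. Full values are given for the 14 genes with the smallest p and for called genes of the wider lists. Where a wider list had no call, its first 2 genes by p are given by difference and adjusted p. Hspa5, Xbp1 and the second Eif2ak3 probe set were added after their values were seen. No set test was run. The main test had no term for the replicate sets. Alternatives were other filters, scalings, probe set rules, variance models and array weights. Others were a replicate block, a term for the replicate sets, each replicate set alone and each array left out.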

Additional observations from a re-analysis of the deposited data

Results flagged for a closer look

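In each group of 4 arrays the gap of the highest or lowest array to its nearest neighbour was divided by the range of the group and set against Dixon's 95% critical value for 4 samples. Of 82 groups 3 exceeded it, and chance alone passes this limit in about 1 of 20 groups. Hspa5 (BiP) was at 9.81 on WT 2, against 10.25 to 10.30 on the other WT arrays. Hsp90b1 (GRP94) was at 10.06 on WT 1, against 10.00 to 10.01 on the others, a gap that is small in absolute terms. Dnajb11 (ERdj3) was at 9.26 on RaptorKO 2, against 8.87 to 8.93 on the other RaptorKO arrays, and it is the gene whose test passed without that array.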

How the results depend on the processing

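The count of ER genes called was 0 in most settings. It was 1 (Edem1) with an intensity-dependent variance and with array weights (-0.54), and 0 to 1 with single arrays left out, where Edem1 passed without WT 2 (-0.56) and Dnajb11 without RaptorKO 2. Their median change of -0.08 was 0.021 in replicates 1 and 2 alone. The number of called genes over the array, 224, was 370 with an intensity-dependent variance, 9 in replicates 1 and 2, 85 in replicates 3 and 4, and 98 (without WT 4) to 251 (without RaptorKO 2) with arrays left out. Sec61b turned to 0.021 in replicates 1 and 2 (adjusted p = 0.966) and Syvn1 to 0.001 in replicates 3 and 4 (adjusted p = 0.998). The causes were not tested. Same-numbered arrays did not all deviate together (correlations of 0.157, -0.153, 0.106 and 0.026). So few correlations cannot decide whether the numbers pair the samples, and the main test used no pairing. With the replicate block 175 genes were called, 0 of them ER genes, and the median stayed at -0.08. A term for the replicate sets, which differ in the sex-linked transcripts, gave 248 called genes, 0 of them ER genes. The median again stayed at -0.08, and Edem1 had a limma adjusted p of 0.0744. The test between the replicate sets called 0 of the 40 ER genes in each alternative run. Of 395 values of single named genes over 22 settings, 378 kept their side of the threshold and their direction, 11 lost a call, 4 gained one and 2 changed sign. All 40 genes were above the filter on every array.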
